A study of Arabidopsis thaliana with 9 samples.

Results

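Root transcripts of the Arabidopsis thaliana lines labelled cngc1-3 and cngc19 were set against each other on 6 of the 9 arrays of the study, 3 for each line, chosen by the sample titles. Both lines are labelled as T-DNA insertion knockouts in the Col-0 background, and the Col-0 arrays took no part in the comparison. The labels name no allele beyond the line names, and nothing in them says how many insertion events a line stands for. Plants of stage 3.90 had grown on agar until day 18 after germination and then for 7 days over aerated nutrient solution before harvest on day 25, and each tube pooled the root systems of 20 to 30 of them. Caesium appears in the study's title, while no caesium treatment is listed for any of these samples. Every value is a MAS5 signal, the brightness of a probe set on a linear scale, and every difference is cngc1-3 minus cngc19 on the scale log2(signal + 16), which understates the change of dim probe sets. The comparison asks which root transcripts are expressed alike in the 2 lines and which differ.

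Cyclic nucleotide-gated channels (CNGCs) are plasma membrane channels that let cations such as potassium and calcium into plant cells and are opened or closed by cyclic nucleotides and calmodulin. Plants hold a family of them, and members have been studied in roots for cation uptake and in shoots for calcium signals. No gene of the family had a named probe set here, so the lines' labels could not be checked through the disrupted genes. The labels do not state whether the 3 tubes of a line were cultured separately, and p-values therefore reflect tube-to-tube spread that may be technical.

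In each line replicates 1 and 2 resembled each other and replicate 3 stood apart. Of the 5632 probe sets that were bright in both lines, meaning a mean signal of 100 or more in each, 99.4% lay within 2-fold of each other between cngc1-3 replicates 1 and 2, and 99.9% between cngc19 replicates 1 and 2. Between the lines the same share was 98.3% to 99.0% for replicates 1 and 2. The replicate 3 arrays broke this pattern: cngc1-3 replicate 3 shared 84.0% with each of the other cngc1-3 arrays but 88.0% and 88.5% with cngc19 replicates 1 and 2, and cngc19 replicate 3 shared 79.8% and 82.0% with its own line. The 2 arrays of replicate 3 shared 69.6% with each other, fewer than any other pair of the 6 arrays. Replicate 3 of cngc19 also correlated more closely with Col-0 replicate 1 (r = 0.963 across all probe sets) than with cngc19 replicates 1 and 2 (0.887 and 0.895), and so resembled an array of another label more than its own line. On cngc1-3 replicate 3 the maker's control probe sets gave a 3′ to 5′ signal ratio of 6.37 for GAPDH and 199.7 for actin, against 0.939 to 1.07 and 1.76 to 2.94 on the other 5 arrays. A high ratio means that the 5′ end of a transcript was poorly represented in the target. The part of RNA quality or labels in the results below was not tested, and results are therefore given over all 6 arrays and over replicates 1 and 2 alone.

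**Figure D1:**
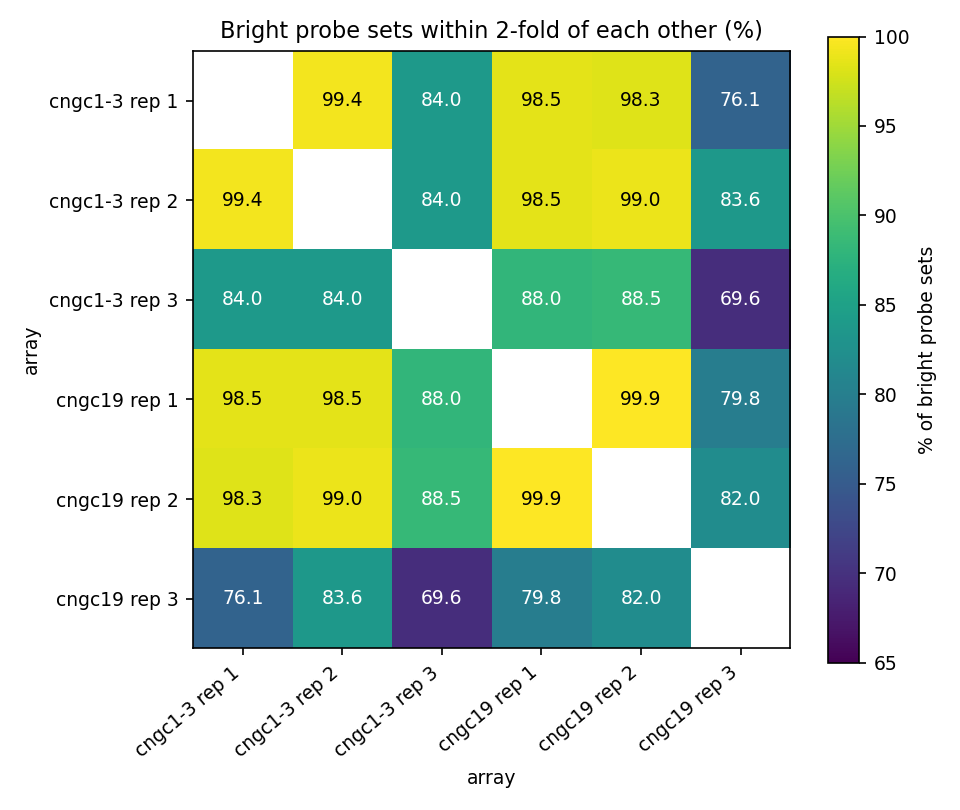
Share of the 5632 bright probe sets whose signals lie within 2-fold of each other (colour and number, in %), for each pair of the 6 arrays. Replicates 1 and 2 of both lines share 98.3% or more, while pairs that hold a replicate 3 array share 69.6% to 88.5%.

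Most transcripts that were bright in roots of both lines passed as expressed alike, a count that depends on the settings. Likeness was called where 2 one-sided limma tests placed the difference within 2-fold in both directions, with an adjusted p under 0.05 over all 22746 probe sets. Over 6 arrays 3887 of the 5632 bright probe sets passed (69.0%), and 1745 were shown neither alike nor different. With replicates 1 and 2 alone 5386 of 5559 passed (96.9%), which left 173 undecided. A total of 3618 probe sets passed with both sets of arrays, 1768 with replicates 1 and 2 only and 269 with 6 arrays only. The count over 6 arrays was 2246 without cngc1-3 replicate 2, 2063 without cngc19 replicate 1 and 1963 without cngc19 replicate 2, and it was 0 with a pseudocount of 1, with a margin of 1.5-fold or with all 9 arrays in one model. The margin of 1.5-fold left 802 with replicates 1 and 2. The median 95% interval of a bright probe set reached 0.66 on the log2 scale to each side of the difference over 6 arrays and 0.40 with replicates 1 and 2. Of the other probe sets, 16042 had a mean under 100 in both lines and 1072 were bright in one line only, and no likeness is claimed for them.

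**Figure D2:**
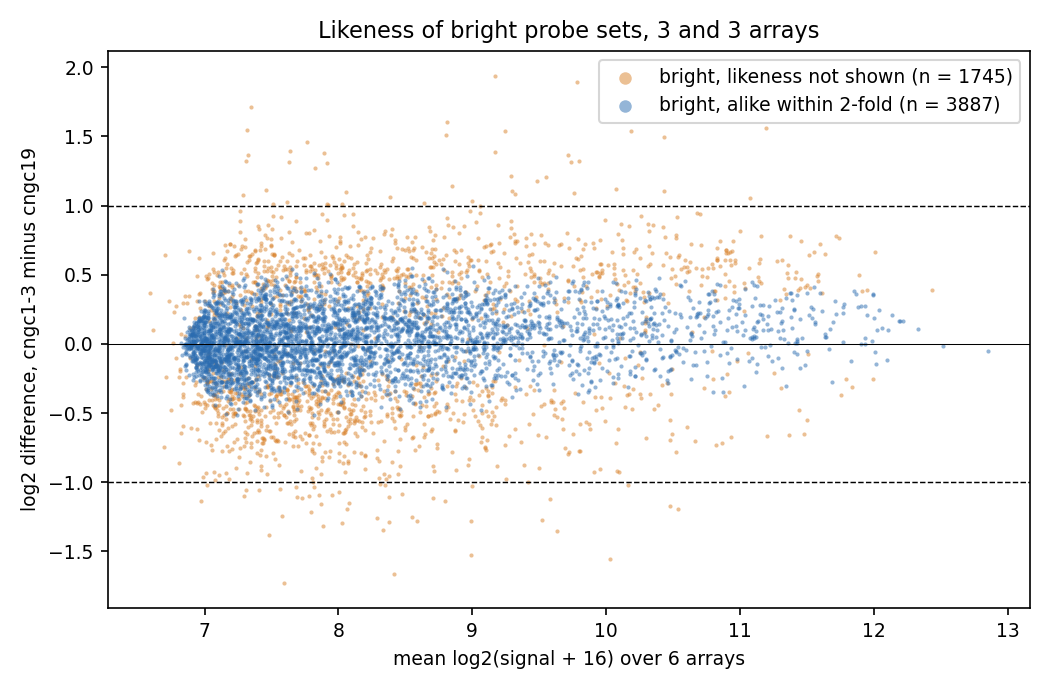
Difference between the lines over 6 arrays (cngc1-3 minus cngc19, log2) against the mean log2(signal + 16) for the 5632 bright probe sets. The 3887 probe sets called alike (blue) lie inside the dashed lines at 2-fold, and the other 1745 (orange) spread to both sides.

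The brightest transcripts called alike over 6 arrays included the root gene PYK10 and genes of central metabolism, and the dimmer root marker EXPA18 also passed. PYK10, a beta-glucosidase that fills the endoplasmic reticulum bodies of root cells, had signals of 5559, 4891 and 4690.2 in cngc1-3 and 5434, 4409 and 3762 in cngc19. The arrays of the 2 lines overlapped, and the difference was 0.17 with a 95% interval from -0.52 to 0.85 and an adjusted p of 0.0211 for likeness in limma. EXPA18, an expansin of root hair cells, had 154, 180.1 and 130.2 in cngc1-3 and 173, 156 and 146 in cngc19, again overlapping (adjusted p = 0.00773 for likeness in limma). EXPA7, the other root hair expansin measured, had 60.3, 115 and 23.0 in cngc1-3 and 80.3, 75.1 and 121 in cngc19 and did not pass as alike over 6 arrays (adjusted p = 0.172 in limma). These 3 were the root markers with a named probe set, of 22 listed.

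Several of the brightest genes called alike encode metabolic enzymes or small proteins. TPI, the glycolytic enzyme triose phosphate isomerase, had 3146, 2943 and 2272 in cngc1-3 and 2914, 2673 and 2573 in cngc19 (difference 0.02). cICDH, the cytosolic NADP-dependent isocitrate dehydrogenase, had 3839, 3430.5 and 4031 in cngc1-3 and 3276, 3235 and 3123 in cngc19. All 3 cngc1-3 arrays lay above the cngc19 arrays for cICDH, by 0.23 on the log2 scale, yet the difference was placed within 2-fold (adjusted p = 0.0183 in limma). MT1C, a small metal-binding metallothionein, had 3249, 3954 and 3264 in cngc1-3 and 3587, 3117 and 4835 in cngc19. psbM of the plastid genome, which encodes a small subunit of photosystem II, had 3559, 3726 and 2876 in cngc1-3 and 4799.9, 3077 and 2075 in cngc19. The groups overlapped for both, and both passed as alike. The other genes among the 15 brightest alike carry only locus identifiers, such as AT3G60245, AT3G48140 and AT5G20290.

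Of the 26 probe sets for citrate cycle, glyoxylate cycle and respiratory carbon metabolism, 16 were bright over 6 arrays and 10 of them passed as alike, and 15 of 16 passed with replicates 1 and 2. These counts stand beside 69.0% and 96.9% of all bright probe sets and do not set the list apart. The list includes the 3 subunit A genes of ATP-citrate lyase, which makes acetyl-CoA in the cytosol, and ICL, which was called different with replicates 1 and 2. ACLA-3 had 383, 423 and 412 in cngc1-3 and 362, 379.7 and 379 in cngc19, and ACLA-1 had 819, 926 and 862 in cngc1-3 and 973, 1073 and 667 in cngc19. Both were alike over 6 arrays. ACLA-2 had 439, 444 and 289 in cngc1-3 and 349.6, 388 and 72.0 in cngc19, and passed with replicates 1 and 2 only. For it cngc19 replicate 3 lay far below the other arrays.

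Some bright members of other families passed as alike, with counts to be read beside 69.0% of all bright probe sets over 6 arrays and 96.9% with replicates 1 and 2. Of the SWEET sugar transporters 3 of 14 were bright and all 3 passed over 6 arrays and with replicates 1 and 2. SWEET17, a fructose carrier of the root vacuole, had 651, 487 and 413 in cngc1-3 and 547, 483 and 336 in cngc19. Among glutathione S-transferases, which conjugate toxic compounds to glutathione, 4 of 7 bright members passed over 6 arrays and 5 of 5 with replicates 1 and 2. GSTU26 had 482, 467 and 630.1 in cngc1-3 and 518, 437 and 481 in cngc19, with overlap. COR47, a dehydrin of cold and drought responses, had 2762, 2468 and 2829.7 in cngc1-3 and 2847, 2557 and 1867 in cngc19 and was alike in both analyses. Of its list of cold, drought and ABA response genes 1 of 2 bright members passed over 6 arrays and 2 of 2 with replicates 1 and 2. XTH18 and XTH19, which remodel xyloglucan in the root cell wall, had 348 to 459 and 345 to 553 in cngc1-3, against 359 to 498 and 355 to 472 in cngc19, and both passed over 6 arrays.

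None of the 13 listed ion channel and transporter probe sets had an unadjusted p under 0.05 in limma, over 6 arrays or with replicates 1 and 2. None of the 7 calmodulin-like calcium sensors had one either. The shares of all probe sets were 2.42% and 8.62%, so lists this small are not set apart by it. The channel and transporter list held 8 glutamate receptor-like channels and 5 cation/proton exchangers, and no CNGC. All 13 were dim, with a median difference of 0.11 over 6 arrays and 0.02 with replicates 1 and 2. The exchanger CHX16 had 33.2, 48.6 and 43.8 in cngc1-3 and 43.9, 58.5 and 17.4 in cngc19. Levels this dim do not show that the lines act alike. Of the 7 calmodulin-like calcium sensors, 3 were bright and passed as alike over 6 arrays: CML42, CML38 and CML43. CML42, which shapes leaf hairs and defence signals, had 375, 272 and 265 in cngc1-3 and 301, 202 and 294 in cngc19, with overlap.

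No probe set passed the test of a difference between the lines over all 6 arrays. limma with trended variances called 0 of 22746 (0%), with a smallest adjusted p of 0.994. At an unadjusted p under 0.05 there were 550 probe sets, 2.42% of those tested, 289 higher in cngc1-3 (1.27%) and 261 lower (1.15%). The arrays of the 2 lines did not overlap for 1868 probe sets (8.21%), with cngc1-3 above cngc19 for 1066 (4.69%) and below it for 802 (3.53%). Described next are the named genes of smallest unadjusted p without overlap whose mean signal was 50 or more in the higher line, and none of them passed the adjustment.

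On the higher side these genes carry only locus identifiers. AT5G03345 had 765, 777 and 927 in cngc1-3 and 495, 476 and 431 in cngc19, a difference of 0.79 (SE 0.21). AT2G39390 had 809, 757 and 1001 in cngc1-3 and 481, 553 and 512 in cngc19, and AT2G32060 had 1541, 1441 and 1629 in cngc1-3 and 969.9, 1038 and 594 in cngc19. Every cngc1-3 array lay above every cngc19 array for all 3 genes, which the rule of choice required. The other 7 of the 10 were AT3G09470, AT2G37600, AT1G73780, AT5G61220, AT1G16000, AT4G22380 and AT3G45730, with differences of 0.68 to 1.03. For replicates 1 and 2 alone the 10 differences were 0.49 to 0.90, in a direction that the rule of choice had fixed.

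On the lower side the list held 2 ribosomal protein genes of the plastid genome, rpl22 and rps3, and a tubulin gene. TUA1, an alpha-tubulin of microtubules, had 48.4, 68.0 and 50.7 in cngc1-3 and 111, 82.5 and 123 in cngc19, a difference of -0.76 (SE 0.25). AR781, which the files name without a function, had 58.1, 56.7 and 43.0 in cngc1-3 and 95.5, 109 and 240.1 in cngc19. AT5G10770 had 9.13, 11.6 and 4.84 in cngc1-3 and 63.3, 33.4 and 122 in cngc19, the most negative difference of the 10 at -1.74. The groups did not overlap for any of them, again as the rule of choice required. The others were AT3G11450, AT5G45430, AT2G43610, AT1G66180 and AT5G63640, with differences of -0.76 to -1.38.

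A stretch of 6 ribosomal protein genes had lower values in all cngc1-3 arrays than in any cngc19 array. They are neighbours among the measured plastid genes by RefSeq locus order, and the locus between rpl36 and rpl14 had no named probe set. Plastids of roots keep a small genome of their own, and these genes encode parts of the plastid ribosome that translates it. They were singled out after their values were seen, and none passed the adjusted threshold over 6 arrays. rpl22 had 65.4, 107 and 32.0 in cngc1-3 and 239, 302 and 199.9 in cngc19, a difference of -1.73 (SE 0.36). rps3 had 144, 190.5 and 335 in cngc1-3 and 411, 475 and 542 in cngc19, a difference of -1.11 (SE 0.31). rps19 had 112, 132 and 11.9 in cngc1-3 and 175, 234 and 337 in cngc19, a difference of -1.67 (SE 0.60) in which cngc1-3 replicate 3 lay far below the other 2 arrays of its line.

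The remaining 3 genes of this stretch were dim. rpl36 had 25.6, 54.7 and 16.4 in cngc1-3 and 67.4, 92.9 and 58.8 in cngc19. rpl14 had 7.76, 11.3 and 4.25 in cngc1-3 and 21.0, 43.2 and 24.7 in cngc19, and rpl16 had 8.26, 12.7 and 8.59 in cngc1-3 and 19.8, 19.1 and 68.5 in cngc19. Their differences were -0.94, -0.92 and -0.88, and with replicates 1 and 2 alone -0.81, -0.88 and -0.42. The direction with replicates 1 and 2 follows from the lack of overlap over 6 arrays. The nearest measured gene on one side, rpoA for a subunit of the plastid RNA polymerase, had 119.8, 184 and 201 in cngc1-3 and 235, 142 and 187 in cngc19, with overlap. Of the 15 plastid ribosomal protein genes measured these 6 had an unadjusted p under 0.05 over 6 arrays in limma, all lower in cngc1-3, beside 1.15% of all probe sets, and none of the other 9 did. Of the 54 other plastid genes measured none did over 6 arrays. With replicates 1 and 2 the picture was wider. Of the 69 plastid genes 11 then had an unadjusted p under 0.05 in limma higher in cngc1-3 and 7 lower. All probe sets had 3.43% and 5.18%. The 15 ribosomal protein genes held 1 of the 11 and 6 of the 7. These last 6 were not the same genes as the stretch. With replicates 1 and 2 rpl16 of the stretch had an unadjusted p of 0.0707 in limma. rpl20, outside the stretch, had 0.0434, and its lines overlapped over 6 arrays. rpl33, another plastid ribosomal protein gene, had 1179, 1149 and 219 in cngc1-3 and 1039, 1114 and 1042 in cngc19, with replicates 1 and 2 level. The 69 plastid genes together had a median difference of -0.15 over 6 arrays and 0.13 with replicates 1 and 2, beside -0.01 for all probe sets in both analyses.

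**Figure D3:**
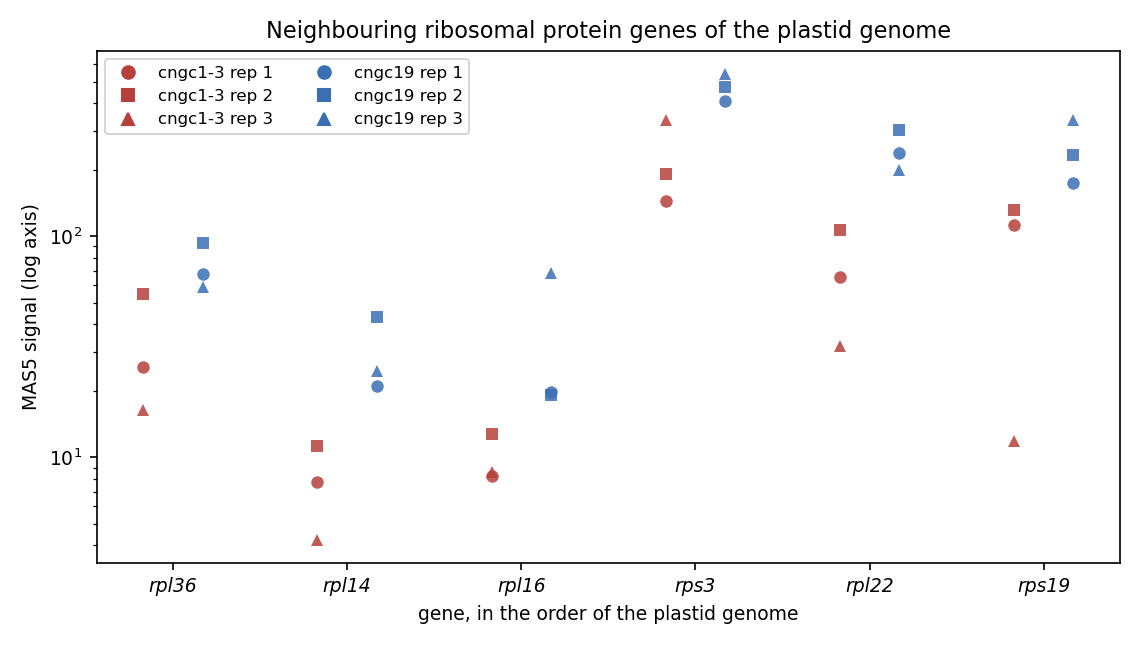
MAS5 signal (log axis) of 6 neighbouring plastid ribosomal protein genes on the 3 cngc1-3 arrays (red) and the 3 cngc19 arrays (blue), where each point is an array. For each gene the 3 cngc1-3 arrays lie below the 3 cngc19 arrays.

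With replicates 1 and 2 of each line alone, 1 probe set of 22746 passed (0.00440%). This was ICL, which encodes isocitrate lyase, the glyoxylate cycle enzyme that lets seedlings turn stored fat into sugar. ICL had 54.7 and 59.0 in cngc1-3 replicates 1 and 2 and 381 and 412 in cngc19 replicates 1 and 2, a difference of -2.50 (SE 0.13, adjusted p = 0.0497 in limma). In replicate 3 the order was the opposite, 82.0 in cngc1-3 and 3.77 in cngc19, so the lines overlapped over 6 arrays and the difference was -0.90 (SE 1.05). The call was lost with a pseudocount of 64 (smallest adjusted p in limma 0.111), quantile normalization (0.0623), eBayes without the trend (0.208) and robust eBayes (0.0539), and over all settings the adjusted p for ICL was 0.000112 to 0.808. Without any one of the 4 arrays limma called 0 probe sets, but a line is then left with 1 array and the other line alone gives the spread, so these fits say little about stability. At an unadjusted p under 0.05 there were 1960 probe sets (8.62%), 781 higher in cngc1-3 (3.43%) and 1179 lower (5.18%).

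Leaving out the 40% of probe sets with the lowest mean over the 6 arrays before the limma fit raised the calls to 101 of 13648 (0.740%), 14 higher in cngc1-3 (0.103%) and 87 lower (0.637%). The trended variances were estimated anew from the remaining probe sets, so the unadjusted p-values changed as well as their adjustment. Of the 101 calls 41 had a single named gene, 8 higher and 33 lower. The replicate 3 arrays, whose values entered only the filter on brightness, gave the same direction for 10 of the 101 (9.90%), beside 6165 of the 13547 probe sets that were tested and not called (45.5%). Over 3 and 3 arrays 8 of the 101 did not overlap, 3 higher and 5 lower, beside 1868 of all 22746 probe sets (8.21%). A lack of overlap was therefore no more frequent among these calls than among all probe sets. The genes named from these calls were chosen by a rule added after the data were seen.

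Nuclear genes of photosynthesis, which served beside the plastid genes as markers of shoot tissue, were among the lower calls. All 9 measured members, of 49 listed, were lower in cngc1-3 with replicates 1 and 2 (median -0.75), 7 of them with an unadjusted p under 0.05 beside 5.18% of all probe sets, and 4 were called with the dim probe sets left out: PSAE-1, PSBW, RCA and PRK. PSAE-1, a photosystem I subunit, had 79.5, 84.5 and 211 in cngc1-3 and 347, 296 and 17.6 in cngc19. PSBW, a photosystem II subunit, had 144, 139 and 362 in cngc1-3 and 343, 328 and 36.7 in cngc19. In both genes replicates 1 and 2 of cngc1-3 lay below those of cngc19, and the replicate 3 arrays lay the other way round. The 69 plastid genes did not share this direction. With replicates 1 and 2, 42 were higher and 27 lower in cngc1-3 (39.1%, median 0.13), beside 52.1% lower of all probe sets. Between the replicate 3 arrays the median of the plastid genes was -0.73.

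RCA, the activase of the carbon-fixing enzyme Rubisco, had 83.8, 95.7 and 105 in cngc1-3 and 235, 209.8 and 32.8 in cngc19. PRK, the Calvin cycle enzyme phosphoribulokinase, had 43.2, 38.2 and 111 in cngc1-3 and 123, 98.4 and 13.5 in cngc19. With the dim probe sets left out, the adjusted p values of the 4 genes in limma were 0.000845 for PSAE-1, 0.00949 for PSBW, 0.0106 for RCA and 0.0152 for PRK. With all probe sets they were 0.127, 0.163, 0.202 and 0.315 in the same order, and none of the 4 passed. The summed signal of the 9 genes was 777, 774 and 1261 in cngc1-3 and 1757, 1523 and 248 in cngc19. The median difference between the replicate 3 arrays was 1.31, and over 6 arrays the median was -0.07. In bulk tissue, fewer cells of a type and less RNA per cell cannot be told apart, and the part of shoot tissue in these values was not tested.

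A further 21 nuclear genes of photosynthesis and chlorophyll synthesis, listed after the data were seen, showed the same directions. In replicates 1 and 2, 20 of 21 were lower in cngc1-3 (median -0.34), beside 52.1% of all probe sets, and SBPASE and CaS were called with the dim probe sets left out. SBPASE, a phosphatase of the Calvin cycle, had 50.1, 43.3 and 149 in cngc1-3 and 130.5, 108 and 17.6 in cngc19 (adjusted p = 0.0176 in limma). CaS, a calcium sensor of the thylakoid membrane, had 18.6, 19.2 and 94.5 in cngc1-3 and 67.9, 60 and 14.0 in cngc19 (adjusted p = 0.0134 in limma). With all probe sets the adjusted p in limma was 0.315 for SBPASE and 0.315 for CaS. The replicate 3 arrays again stood in the opposite order, with a median difference of 1.09.

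**Figure D4:**
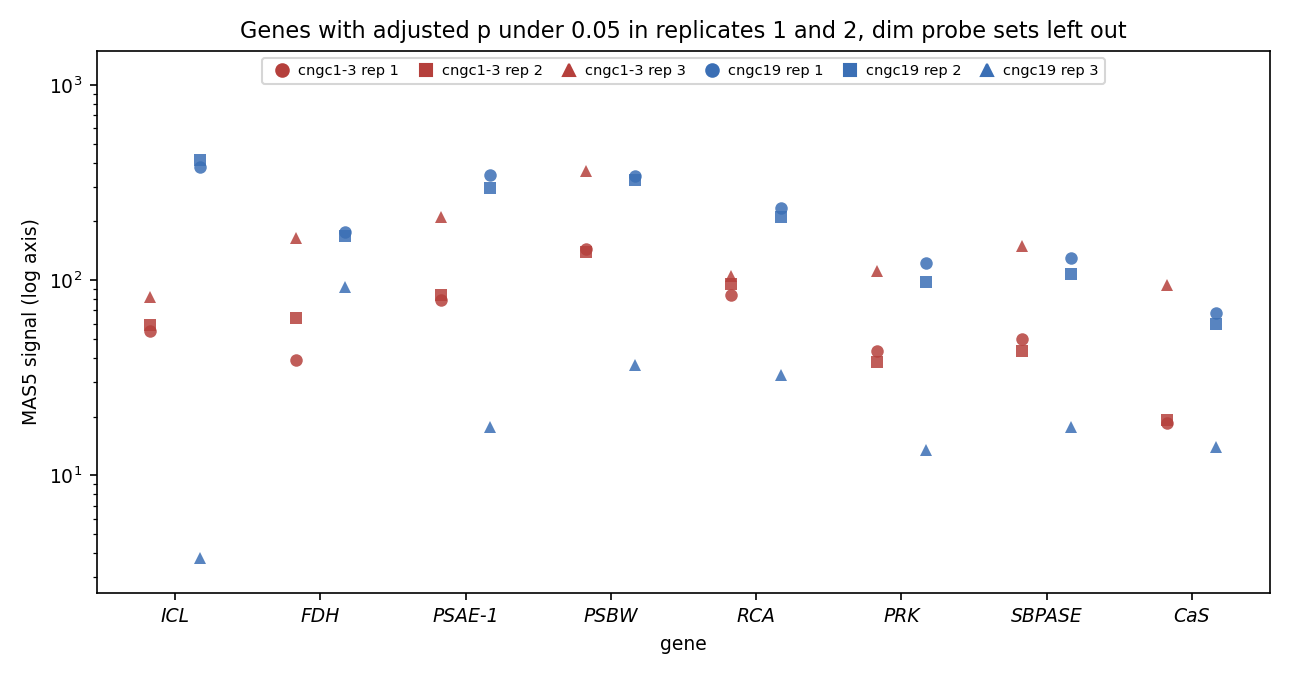
MAS5 signal (log axis) of 8 genes that passed with replicates 1 and 2 once the dimmest 40% of probe sets were left out, on the 3 cngc1-3 arrays (red) and the 3 cngc19 arrays (blue). Replicates 1 and 2 of cngc1-3 (circles and squares) lie below those of cngc19, while the replicate 3 arrays (triangles) lie in the opposite order for each of the 8 genes.

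Other lower calls with replicates 1 and 2 followed the same course. FDH, mitochondrial formate dehydrogenase, had 38.8, 63.9 and 165 in cngc1-3 and 177, 168 and 92.1 in cngc19 (adjusted p = 0.00772 in limma with the dim probe sets left out). GH3.3, which conjugates the hormone auxin to amino acids, had 13.7, 29.9 and 127 in cngc1-3 and 95.7, 107 and 15.8 in cngc19 (adjusted p = 0.00718). UGT73B4, an enzyme that attaches sugar to small molecules, had 30.9, 56.4 and 90.2 in cngc1-3 and 115, 128 and 1.20 in cngc19 (adjusted p = 0.0242). All 3 were lower in cngc1-3 in replicates 1 and 2 and higher in its replicate 3. With all probe sets their adjusted p values in limma were 0.288, 0.315 and 0.332 in the order named. AT1G09310 had the most negative difference of the named calls, -3.28, with 27.9, 28.3 and 296 in cngc1-3 and 642, 264 and 19.0 in cngc19.

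Among the higher calls matK, the maturase of the plastid genome that aids intron splicing, had 588, 564 and 30.0 in cngc1-3 and 129.8, 257 and 688 in cngc19 (difference 1.57 in replicates 1 and 2, adjusted p in limma 0.0122 with the dim probe sets left out and 0.327 with all). AT4G22212 had 2276, 1635 and 1573 in cngc1-3 and 916, 892 and 4701 in cngc19. The cngc19 replicate 3 array lay above every other array for both genes. The other 6 named higher calls were AT1G26390, AT1G14550, AT5G43520, AT5G38910, AT4G31470 and AT1G52820, and none of the 8 was free of overlap over 6 arrays.

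The 8 calls with no overlap over 6 arrays included 3 named genes, rps3, rpl22 and AT5G10770, all lower in cngc1-3. After the dim probe sets were left out, the adjusted p values with replicates 1 and 2 in limma were 0.00920 for rps3, 0.00949 for rpl22 and 0.0402 for AT5G10770. With all probe sets they were 0.222, 0.315 and 0.347 in the same order, and rps3 and rpl22 passed in 3 of 16 settings each. The other 5 probe sets are unnamed here. One of them, 267565_at, had 376, 454 and 225 in cngc1-3 and 110.5, 119 and 29.0 in cngc19, a difference of 1.95 over 6 arrays and 1.72 with replicates 1 and 2. Another, 248250_at, had 189.6, 233 and 234 in cngc1-3 and 96.5, 90.6 and 72.5 in cngc19, differences of 1.20 and 1.05. Both were singled out after their values were seen. All 3 cngc1-3 arrays lay above the cngc19 arrays, which follows from choosing calls without overlap.

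Genes of the low-oxygen response, which roots switch on in waterlogged soil, lay closer together between the lines in replicates 1 and 2 than in replicate 3. Of the 11 measured members 9 were bright, and 8 of these were alike with replicates 1 and 2, and 2 of 9 over 6 arrays, beside 96.9% and 69.0% of all bright probe sets. PDC2, a pyruvate decarboxylase of alcoholic fermentation, had 491, 585 and 269 in cngc1-3 and 486, 568 and 130.4 in cngc19. HRA1 (AT3G10040), a regulator that dampens the response, had 125, 126 and 56.7 in cngc1-3 and 111, 107 and 39.1 in cngc19. Both genes had lower values in replicate 3 of each line. AT4G33560 had 493, 343 and 599.7 in cngc1-3 and 442, 471 and 39.0 in cngc19, and AT5G66985 had 2219.6, 1181 and 3133 in cngc1-3 and 2331, 1765 and 285 in cngc19. For these the cngc19 replicate 3 array was the lowest array. All 11 differences were above 0 over 6 arrays (median 0.46), while the median was -0.08 with replicates 1 and 2. None had an unadjusted p under 0.05 in limma over 6 arrays, beside 2.42% of all probe sets.

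Several expansins were far lower in replicate 3 of cngc1-3 than on any other array. EXPA4, an expansin that loosens growing walls, had 1069, 977 and 30.8 in cngc1-3 and 699, 705 and 589.7 in cngc19. EXPA15 had 513, 537 and 69.2 in cngc1-3 and 326, 319 and 224 in cngc19, and EXPB3 had 662, 696 and 197 in cngc1-3 and 460.1, 420.1 and 312 in cngc19. In replicates 1 and 2 cngc1-3 lay above cngc19 for all 3 genes, and its replicate 3 lay below every cngc19 array. Of the 27 expansin, XTH and extensin probe sets 5 had an unadjusted p under 0.05 higher and 2 lower with replicates 1 and 2, beside 3.43% and 5.18% of all probe sets. None had one over 6 arrays, beside 2.42% of all probe sets. Of the bright members 8 of 9 were alike with replicates 1 and 2 and 4 of 9 over 6 arrays, beside 96.9% and 69.0%.

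Among 48 UDP-glycosyltransferases 7 had an unadjusted p under 0.05 with replicates 1 and 2, all lower in cngc1-3, beside 5.18% of all probe sets. None had one over 6 arrays, beside 2.42% of all probe sets. With replicates 1 and 2, 11 of 11 bright members were alike, beside 96.9% of all bright probe sets. UGT87A2 had 55.5, 124 and 121 in cngc1-3 and 192, 232 and 72.0 in cngc19. RALF peptides, secreted signals that restrain cell growth, had a median difference of 0.36 over 6 arrays and 0.07 with replicates 1 and 2. RALFL27 had 219, 196 and 582 in cngc1-3 and 402, 354 and 47.0 in cngc19, while RALFL22 had 816, 683 and 814 in cngc1-3 and 645, 559.5 and 967 in cngc19 and was alike in both analyses. The order of the lines in RALFL27 was the opposite in the replicate 3 arrays.

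Among WRKY transcription factors, which act in defence and ageing, 1 of 6 had arrays without overlap, WRKY6. Of all probe sets 8.21% had none, and a single gene does not set the list apart. WRKY6 had 48.5, 88.8 and 80.3 in cngc1-3 and 108, 113 and 118 in cngc19, a difference of -0.57 (SE 0.26, unadjusted p = 0.0577 in limma). None of the 6 WRKY genes, 20 glucosinolate and beta-glucosidase genes or 14 glutathione S-transferases had an unadjusted p under 0.05 over 6 arrays. Of all probe sets 2.42% had one, so this does not set the lists apart. GSTL3 had 104, 87.5 and 159.9 in cngc1-3 and 188, 179.5 and 74.2 in cngc19, and GSTU28 had 109.8, 126 and 86.7 in cngc1-3 and 69.6, 56.0 and 187 in cngc19. The replicate 3 arrays of both genes stood in the opposite order to replicates 1 and 2.

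**Figure D5:**
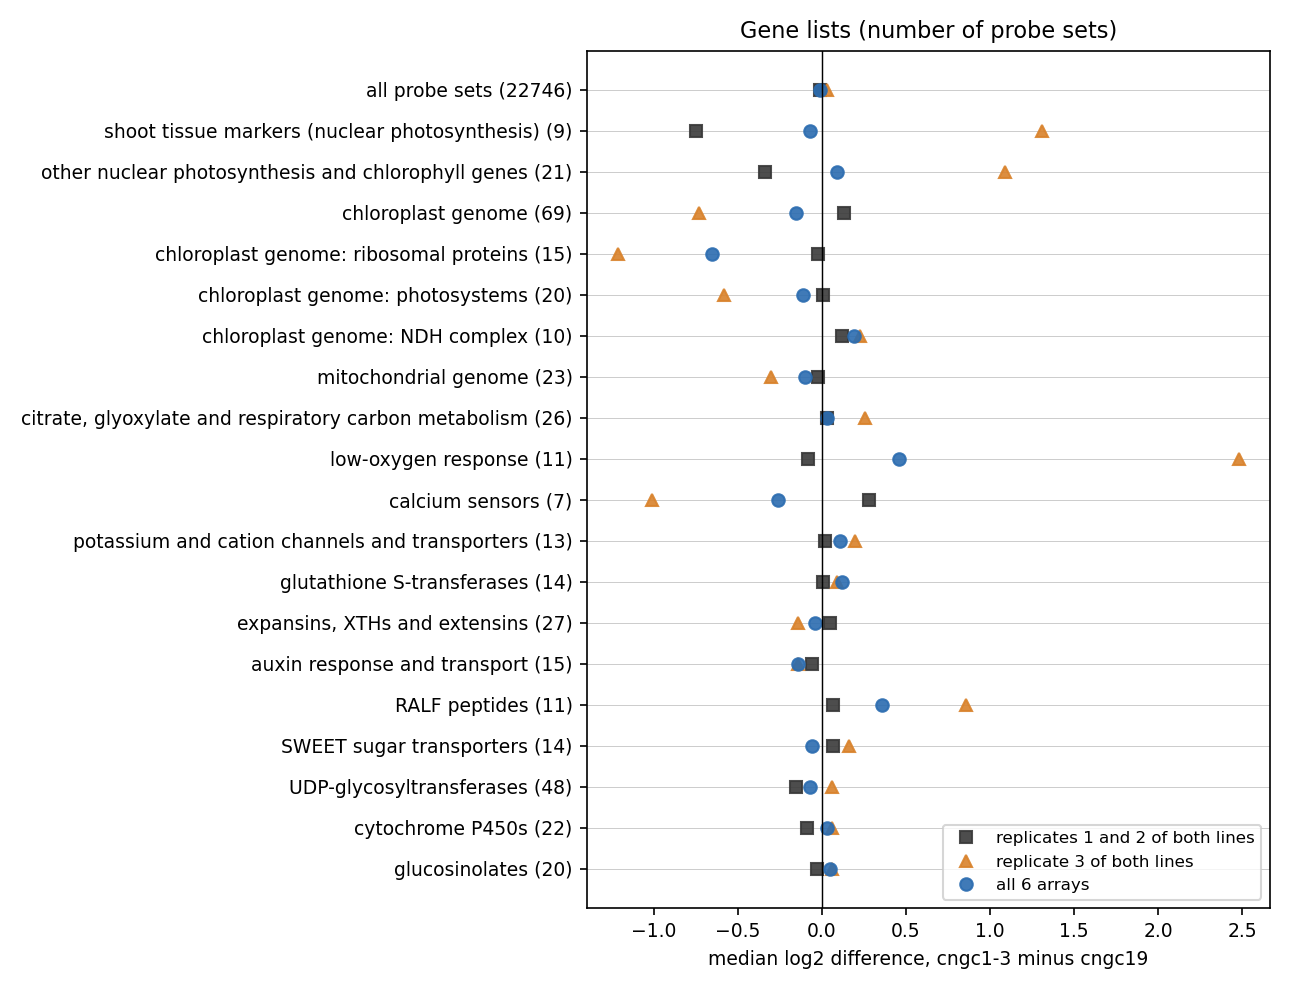
Median difference between the lines (cngc1-3 minus cngc19, log2) for gene lists with the number of probe sets in brackets, over replicates 1 and 2 (squares), between the replicate 3 arrays (triangles) and over all 6 arrays (circles). The 9 nuclear shoot markers lie at -0.75 with replicates 1 and 2 and at 1.31 between the replicate 3 arrays, the plastid genes at 0.13 and -0.73, and the low-oxygen genes at -0.08 and 2.48.

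More probe sets were set apart by replicate 3 of a line than by the lines in replicates 1 and 2. Within cngc1-3, 153 bright probe sets were more than 2-fold higher and 670 more than 2-fold lower in replicate 3 than the mean of replicates 1 and 2, and replicates 1 and 2 were that far apart for 36. Within cngc19 the counts were 330, 721 and 7. Both replicate 3 arrays were lower by that much for 77 probe sets and higher for 8. With replicates 1 and 2 alone, 49 of the same 5632 probe sets differed more than 2-fold between the lines.

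In replicate 3 of cngc19 the widest gaps ran in both directions. JAL33, a jacalin-related lectin, had 3903, 3941 and 4195 in cngc1-3 and 5352, 4880 and 81.4 in cngc19. PRX71 (AT5G64120), a cell wall peroxidase, had 716, 1202 and 381 in cngc1-3 and 1071, 1108 and 30.4 in cngc19. STZ, a zinc finger repressor of stress responses, had 41.9, 84.7 and 68.2 in cngc1-3 and 68.5, 65.1 and 1096 in cngc19. The other 5 arrays lay between 3903 and 5352 for JAL33. AT3G29410 reached 3456 in cngc19 replicate 3, against 29.8 to 62.2 on the other 5 arrays.

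In replicate 3 of cngc1-3 the named genes with the widest gaps on the low side included plastid genes. psbF, a subunit of photosystem II encoded in the plastid, had 811, 750 and 30.2 in cngc1-3 and 879, 742 and 254 in cngc19. petB, the plastid gene for cytochrome b6, had 1100.2, 1148 and 60.9 in cngc1-3 and 359, 1003 and 701 in cngc19. AT4G05150 had 449, 623 and 7.72 in cngc1-3 and 541, 489 and 775 in cngc19. For each gene the cngc1-3 replicate 3 array was the lowest of the 6. The summed signal of the 69 plastid genes was 19106, 17925 and 8006 in cngc1-3 and 17587, 18343 and 15190.1 in cngc19.

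Several bright transcripts passed as alike with replicates 1 and 2 but not over 6 arrays. PRXR1, a peroxidase, had 3553, 3449.6 and 2839 in cngc1-3 and 3144, 2907 and 7261 in cngc19. GAPC2, cytosolic glyceraldehyde-3-phosphate dehydrogenase of glycolysis, had 4477, 3939.8 and 1907 in cngc1-3 and 3918, 3446 and 4247 in cngc19. LCR69, a small cysteine-rich defensin-like protein, had 4496, 3295 and 4253 in cngc1-3 and 4014, 3796 and 903 in cngc19. In each case replicates 1 and 2 of the 2 lines differed by at most 0.21 on the log2 scale in the mean, and 1 of the replicate 3 arrays stood apart.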

How the data were processed

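Signals of 22810 probe sets on 6 root arrays (64 maker's controls left out, 22746 tested) were taken as deposited. They are intensities on a linear scale, for which the submitters' processing notes name GCOS and MAS5 as the authors' tools. The mean of each array after trimming 2% at each end was 100.0, so no further scaling was done. Signals were analysed as log2(signal + 16) with limma 3.58.1 in R 4.3.3 (lmFit, eBayes with trend), two-sided, Benjamini-Hochberg adjusted over all probe sets, at 0.05. The fit over 6 arrays had 4 residual degrees of freedom and that over replicates 1 and 2 had 2. Likeness used 2 one-sided tests against 2-fold, reported where both lines averaged 100 or more. Tables used pandas 2.3.3 and numpy 2.4.6 and figures matplotlib 3.10.9, in Python 3.11.15. The number of arrays limits the precision, and no detection calls were used.

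Probe sets were named through the platform annotation (13513 with 1 gene, 503 with several, 8730 unnamed), with 13436 updated through RefSeq (TAIR10.1). The members, 34 gene lists and tests were chosen with earlier results of these data known. Of the lists 5 were added after the files were read and 29 had a named probe set. Named genes were those of smallest p without overlap (6 arrays), the calls and smallest p (replicates 1 and 2), the brightest alike, the widest gaps of replicate 3, and per list those of smallest p and the brightest. Some list members and the neighbouring plastid genes were named after their values were seen. The procedure was also run on simulated data of 22746 probe sets with independent noise, and no result given here rests on that run. Alternatives were pseudocounts of 1 and 64, filters at the 40th and 60th percentile, other normalizations, eBayes options, array weights, a replicate block, all 9 arrays, other likeness settings and each array left out.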

Additional observations from a re-analysis of the deposited data

Results flagged for a closer look

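On the cngc1-3 replicate 3 array the maker's control probe sets gave a 3′ to 5′ signal ratio of 199.7 for actin and 6.37 for GAPDH. These controls are outside the comparison, and both ratios exceed those of the 3 Col-0 arrays, which were 1.34 to 5.81 for actin and 0.240 to 2.81 for GAPDH. Their part in the differences was not tested.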

How the results depend on the processing

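Over 6 arrays the number of probe sets that differ stayed at 0 under each alternative run, with an unadjusted p under 0.05 for 20 probe sets with all 9 arrays in one model and 2349 with array weights. With replicates 1 and 2 the single call became 24 with a pseudocount of 1, 0 with a pseudocount of 64, 101 with the filter at the 40th percentile, 78 with that at the 60th, 39 with median centring (6 higher, 33 lower), and 0 with quantile normalization, without the trend and with robust eBayes. Without any one of the 4 arrays it was 0 (unadjusted p under 0.05 for 1282 to 3500), where the spread comes from one line alone. Median centring moved the median difference of all probe sets from -0.01 to 0.05. The number alike over 6 arrays, 3887 at first, was 0 with a pseudocount of 1, a margin of 1.5-fold or all 9 arrays, 6557 and 2033 with signal minimums of 50 and 200, and 1963 to 4756 without one array (2246 without cngc1-3 replicate 2, 2063 and 1963 without cngc19 replicates 1 and 2). With replicates 1 and 2 it was 802 with the margin of 1.5-fold, 8603 and 3018 with signal minimums of 50 and 200, and 4496 to 5392 without one array. The cause was not tested, except that a stricter margin or another signal minimum changes what is counted. Samples of the same replicate number deviated from the means of their lines with correlations of 0.12, -0.05 and -0.01. The replicate 3 arrays enter those means, so the values do not decide whether the numbers pair the lines. With the replicate block the calls were 0 over 6 arrays and 1 with replicates 1 and 2, and the alike counts were 3914 over 6 arrays. Of the differences of named genes under the alternatives 3229 kept their side of the threshold, 48 passed newly and 8 no longer passed, and none changed direction after a call. Of their likeness calls 333 held and 137 did not pass. The 6 plastid ribosomal genes kept a difference below 0 in each setting in which they were fitted, over 6 arrays and with replicates 1 and 2. Every cngc1-3 array lay below every cngc19 array for these genes. Most settings could therefore not have changed the direction, and its constancy does not show stability. rpl14 and rpl16 fell out under both filters on brightness and rpl36 under the stricter one.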
